A study of Homo sapiens with 4 samples.

Results

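The 8 genes of cell-cell adhesion examined were the cadherin genes CDH1, CDH2, CDH3, CDH5 and CDH13 and the catenin genes CTNNA1, CTNNB1 and CTNND1. They were taken by symbol from a table of 60649 gene rows, and all 8 were found and passed the filter on low counts. The list was chosen by name with the fold changes between the groups in these same libraries known, CDH5 being among the genes called higher. CDH5 was thus selected on its own fold change, and the fold changes of the 8 genes are given as a description. Calls of members in the fit over all genes are printed only as counts beside the share of all genes called, and support nothing. CDH13, whose product lacks the cytoplasmic tail, was listed with the classical cadherins although it is an atypical member of the family.

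Classical cadherins are calcium-dependent adhesion proteins that span the plasma membrane and bind cadherins on the neighbouring cell. Their cytoplasmic tails bind p120-catenin near the membrane and beta-catenin further along, and alpha-catenin links beta-catenin to actin. In stratified squamous epithelium the main classical cadherins are E-cadherin and P-cadherin, while VE-cadherin, the product of CDH5, is best known from the junctions of endothelial cells.

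RNA was sequenced from FaDu cells, an established line from a squamous cell carcinoma of the human hypopharynx. One group carried a construct that overexpresses TINCR fused to the HA and FLAG tags, and the other an empty vector, with 2 libraries per group and 4 in all. The series calls the replicates technical, so every error and p-value here measures only the spread between libraries. For the construct's promoter and the number of clones, the sources used here give nothing. Total counts lay between 17069533 and 22331602 per library. TINCR counts were 68 and 64 in empty vector libraries, against 1921 and 2943 where the construct was present, a log2 fold change of 4.93 (SE 0.17), and reads of the construct and of the cell's own gene were not told apart. The squamous markers were abundant, with KRT5 at 4457 ± 427 CPM, the count scaled to library size (SD, n = 2), in the empty vector libraries.

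CDH5 was the member that differed most between the groups. It (ENSG00000179776.19) lies on chromosome 16 of GRCh38, from 66366622 to 66404786 on the plus strand, where no other gene of the GENCODE 29 annotation overlaps it. Its counts were 209 and 232 in the empty vector libraries and 637 and 857 in those with TINCR-HA-FLAG. After scaling with TMM factors, as for all CPM values here, these became 12.2 and 13.7 CPM against 34.6 and 38.6 CPM, so both TINCR-HA-FLAG libraries lay far above both empty vector libraries. The means were 12.9 ± 1.05 and 36.6 ± 2.85 CPM (SD, n = 2 per group), a 2.83-fold difference and a log2 fold change of 1.501 (SE 0.14). Leaving out each library in turn gave log2 fold changes from 1.38 to 1.59. In bulk RNA, more cells that express CDH5 and more CDH5 RNA per cell cannot be told apart.

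**Figure D1:**
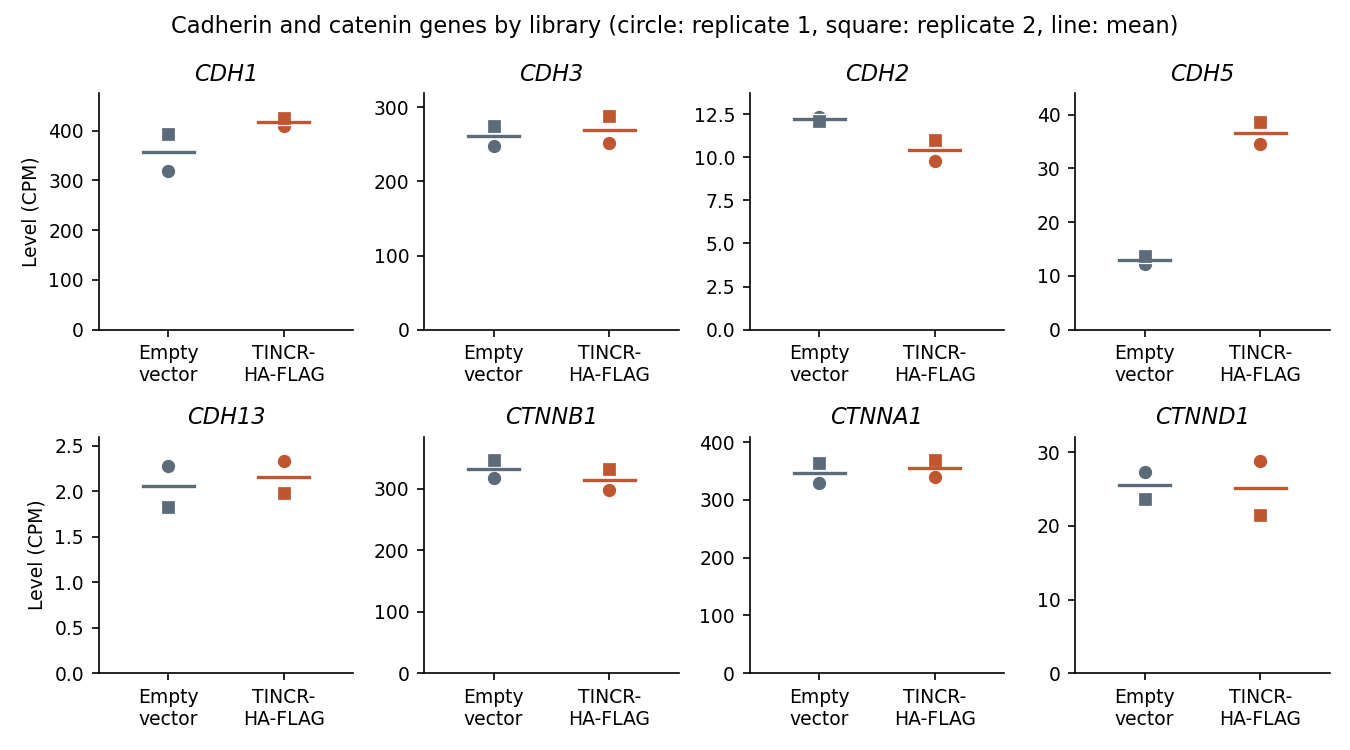
Level of each member in CPM (vertical axes, each starting at 0) by group (horizontal axis), with a circle for replicate 1, a square for replicate 2 and a line for the mean of 2 libraries. CDH5 is near 13 CPM with the empty vector and lies at 34.6 and 38.6 CPM with TINCR-HA-FLAG, while the points of CDH3, CDH13 and the 3 catenin genes overlap between the groups.

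The epithelial cadherins CDH1 and CDH3 were the most abundant cadherins and stayed so in both groups. CDH1, which encodes E-cadherin, lies at 68737225 to 68835548 on chromosome 16 and CDH3, which encodes P-cadherin, at 68636189 to 68722616, both on the plus strand, with starts 101 kb apart. CDH1 had 319.7 and 393 CPM with the empty vector and 410.0 and 426 CPM with TINCR-HA-FLAG. Its groups did not overlap, but the second empty vector library was closer to the TINCR-HA-FLAG libraries than to its own replicate. The log2 fold change of CDH1 was 0.23 (SE 0.13), and it was 0.048 when empty vector replicate 1 was left out and 0.39 when replicate 2 was. CDH3 had 247 and 275 CPM with the empty vector and 251 and 288 CPM with TINCR-HA-FLAG. These CDH3 values interleaved, and the log2 fold change was 0.05 (SE 0.12).

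CDH2, which encodes N-cadherin and is best known from neural and mesenchymal cells, was present at a low level. It is on chromosome 18, from 27950966 to 28177446 on the minus strand. Its levels were 12.3 and 12.1 CPM with the empty vector and 9.77 and 11.0 CPM with TINCR-HA-FLAG. Both TINCR-HA-FLAG values lay below both empty vector values, with a log2 fold change of -0.23 (SE 0.17). CDH13, which encodes the glycolipid-anchored T-cadherin and lies at 82626803 to 83800640 on chromosome 16, was the least abundant member. Its counts were 39 and 31 (empty vector) and 43 and 44 (TINCR-HA-FLAG), that is 2.28 and 1.83 CPM against 2.34 and 1.98 CPM. At this depth the log2 fold change of CDH13, 0.06, had a standard error of 0.35, the widest of the 8 genes.

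The values of all 3 catenin genes overlapped between the groups. CTNNB1, which encodes beta-catenin (chromosome 3, 41194741 to 41260096), had 317 and 346 CPM with the empty vector and 297 and 332 CPM with TINCR-HA-FLAG. CTNNA1, which encodes alpha-E-catenin (chromosome 5, 138610967 to 138935034), had 329 and 364 CPM against 339.7 and 369.9 CPM. In both genes replicate 2 was the higher library of each group. The log2 fold changes were -0.08 (SE 0.11) for CTNNB1 and 0.03 (SE 0.11) for CTNNA1. CTNND1, which encodes p120-catenin (chromosome 11, 57753243 to 57819546), had 27.4 and 23.7 CPM against 28.8 and 21.4 CPM. Its spread within the TINCR-HA-FLAG group was wider than the difference between the group means, and the log2 fold change was -0.03 (SE 0.16). It was -0.25 without TINCR-HA-FLAG replicate 1 and 0.17 without TINCR-HA-FLAG replicate 2.

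Over the 8 members the groups did not overlap for 3, namely CDH5 and CDH1 with higher and CDH2 with lower values in TINCR-HA-FLAG. Of all 18771 genes tested, 39.6% had groups that did not overlap. In edgeR's quasi-likelihood fit over all genes, 1 of the 8 members, CDH5, had an adjusted p under 0.05, and 0.549% of all genes did (85 higher and 18 lower). The same member was the only one with an unadjusted p under 0.05, beside 10.2% of all genes. Since these libraries chose CDH5, nothing is read from those counts. The 7 other members had log2 fold changes from -0.23 to 0.23 with standard errors from 0.11 to 0.35. The median over the 8 genes was 0.04, beside 0.004 over all genes tested.

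**Figure D2:**
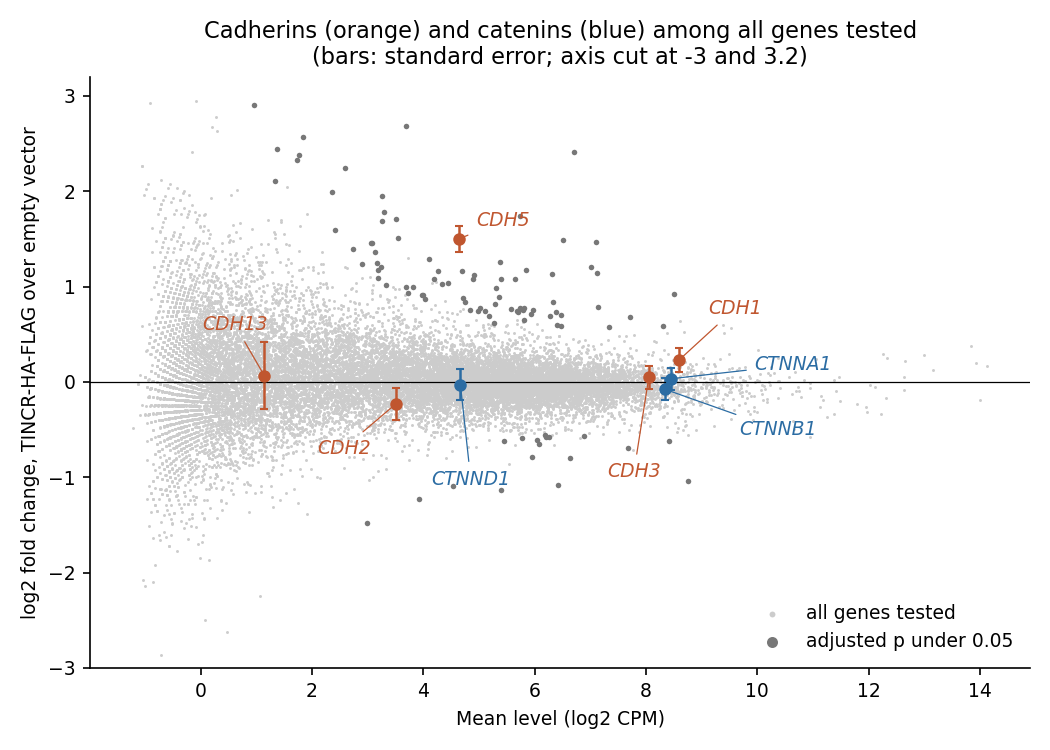
The log2 fold change of TINCR-HA-FLAG over empty vector (vertical axis) against the mean level in log2 CPM (horizontal axis) for all genes tested in light grey, genes with an adjusted p under 0.05 in dark grey, cadherins in orange and catenins in blue with their standard errors. CDH5 stands at 1.501, the 7 other members lie between -0.23 and 0.23, and 5 genes fall outside the plotted range.

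Levels of different genes were compared per kilobase of merged exons. CDH1 had 51.8 and 63.6 CPM per kb with the empty vector, against 66.4 and 69.0 with TINCR-HA-FLAG, and CDH3 had 39.6 and 44.02 against 40.3 and 46.1 CPM per kb. CDH2 had 2.49 and 2.44 CPM per kb with the empty vector, close to the 2.01 and 2.25 of CDH5. With TINCR-HA-FLAG the level of CDH5 was 5.69 and 6.35 CPM per kb and that of CDH2 was 1.97 and 2.22, so among the 5 cadherins listed as members CDH5 was the third in rank. The ratio of CDH5 to CDH2 per kilobase was 0.81 and 0.92 in the empty vector libraries and 2.88 and 2.86 in the TINCR-HA-FLAG libraries. Taking the length of the longest transcript instead put these ratios at 1.04 and 1.19 against 3.72 and 3.69, so which of the pair ranked higher in the empty vector libraries depended on the length used.

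As a share of the summed level per kilobase of the 5 cadherins, CDH5 made up 2.09% and 2.0001% with the empty vector, against 4.97% and 5.13% with TINCR-HA-FLAG. CDH1 made up 53.9% and 56.6% against 57.9% and 55.7%, shares that overlapped between the groups. For CDH3 the shares were 41.3% and 39.1% against 35.2% and 37.2%, and for CDH2 2.59% and 2.17% against 1.72% and 1.79%. A share also depends on the sum, and the CDH3 levels themselves overlapped between the groups. In both groups CDH1 and CDH3 thus supplied nearly all cadherin RNA of the list. The summed level of the 5 cadherins was 96.1 and 112 CPM per kb with the empty vector, against 115 and 124 with TINCR-HA-FLAG, while that of the 3 catenins was 67.0 and 73.0 against 66.7 and 72.1.

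**Figure D3:**
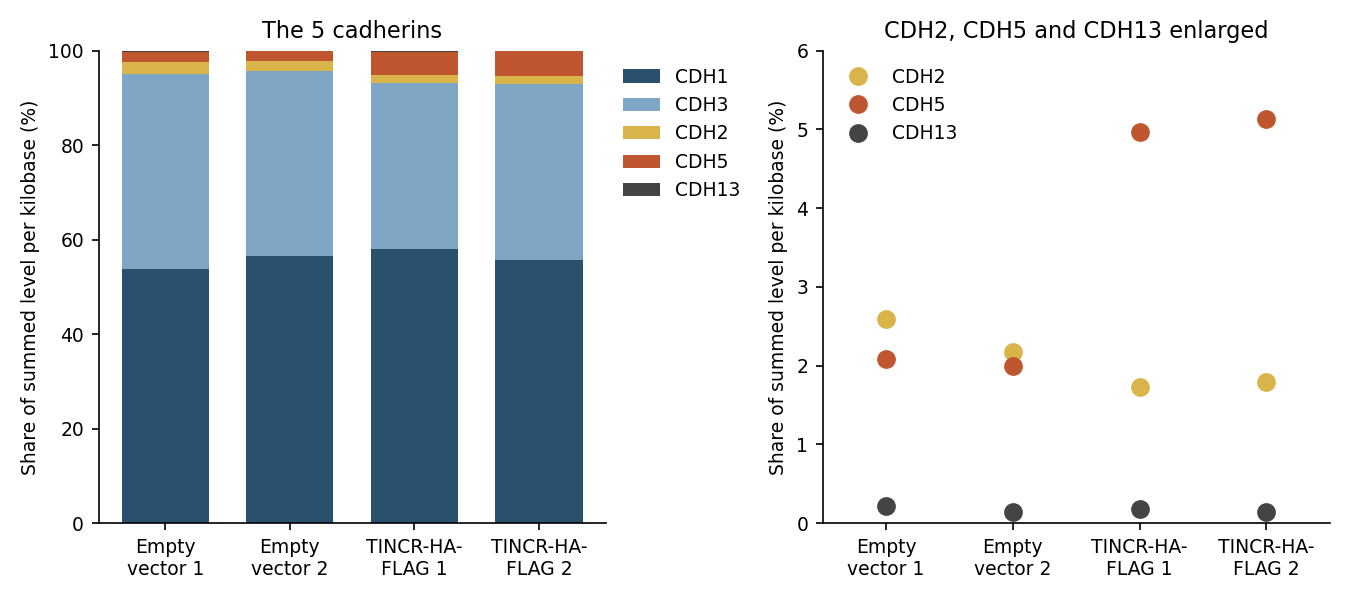
Share of the summed level per kilobase of the 5 cadherins (vertical axes, percent) in each library (horizontal axes), as stacked bars on the left and enlarged for CDH2, CDH5 and CDH13 on the right. CDH5 is at 2.09% and 2.0001% with the empty vector and at 4.97% and 5.13% with TINCR-HA-FLAG, above CDH2 only in the TINCR-HA-FLAG libraries.

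Among the 3 catenins the order of levels per kilobase was CTNNA1, CTNNB1 and then CTNND1 in every library. CTNNA1 had 39.3 ± 2.78 CPM per kb, CTNNB1 27.8 ± 1.75 and CTNND1 2.90 ± 0.30 with the empty vector (SD, n = 2), and the values with TINCR-HA-FLAG were 40.2 ± 2.42, 26.4 ± 2.04 and 2.85 ± 0.59 (SD, n = 2). CDH3 was above CTNNA1 in each of the 4 libraries, by less than either gene varied between libraries. With the longest transcript as length, CTNNA1 instead ranked above both CDH1 and CDH3 in both groups. The empty vector means were then 90.5 CPM per kb for CTNNA1, 72.9 for CDH1 and 52.9 for CDH3, and the TINCR-HA-FLAG means 92.6, 85.5 and 54.7, so the order between the families depended on the length used. The low level of CTNND1 is uncertain. RefSeq (GRCh38.p14) lists a readthrough gene, TMX2-CTNND1, that covers 99.4% of the span of CTNND1, and the handling of reads shared by 2 genes is not stated in the labels; its part in the low level was not tested. Exons of other genes on the same strand covered 4.64% of the CTNND1 exon bases in GENCODE 29 and none of those of the 7 other members. Exons of genes on the opposite strand covered up to 11.1% of a member's exon bases, the highest share being in CDH3, and 0 in CDH5. The annotation used for counting is not given and 58381 of the 60649 rows matched GENCODE 29, so these shares describe that release only.

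Most other classical cadherin genes gave few reads. Of 14 listed, 5 passed the filter and none was called by edgeR (0 called by DESeq2). Among these 5, 1 had an unadjusted p under 0.05, beside 10.2% of all genes. Of the 14, 7 had at most 3 counts in every library. CDH24, a broadly expressed type II cadherin gene, was the most abundant with 57.2 and 50.8 CPM against 45.5 and 43.1 CPM (log2 fold change -0.29, SE 0.11, adjusted p = 0.41, edgeR). CDH8, a neural type II cadherin gene, had 54 and 56 counts against 95 and 86 (log2 fold change 0.47, SE 0.28, adjusted p = 0.65, edgeR). Per kilobase CDH24, at 14.4 ± 1.201 and 11.8 ± 0.45 CPM per kb (SD, n = 2 per group), was above CDH5 in both groups.

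Of the 7 other catenins and p120 relatives, 5 were tested and none was called (0 with an unadjusted p under 0.05, and 0 called by DESeq2). Their log2 fold changes ran from -0.01 to 1.54 with a median of 0.04. The highest was that of CTNND2, a p120 relative with few reads, at 7 and 3 counts against 21 and 14. Its SE was 0.70 and its adjusted p 0.50 in edgeR, and DESeq2 gave it no adjusted p. JUP encodes plakoglobin, the beta-catenin relative shared by adherens junctions and desmosomes. It had 589 and 698 CPM with the empty vector and 571 and 706 CPM with TINCR-HA-FLAG, values that overlapped (log2 fold change -0.01, SE 0.14). Per kilobase JUP reached 130.2 ± 15.6 and 129 ± 19.4 CPM per kb (SD, n = 2 per group), above CTNNB1. With the longest transcript as length the empty vector means were 184 CPM per kb for JUP and 67.9 CPM per kb for CTNNB1, the same order. PKP4, a p120 relative, had 78.5 and 76.1 CPM against 80.0 and 78.7 CPM (log2 fold change 0.04, SE 0.10).

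None of the 19 partners of the adherens junction was called, and none had an unadjusted p under 0.05 (0 called by DESeq2). The list held the nectins, the actin linkers and the scaffolds, and its log2 fold changes ran from -0.29 to 0.31 with a median of -0.009. The alpha-actinin genes were the most abundant: ACTN4 had 739.99 ± 63.2 and 735 ± 121 CPM, and ACTN1 had 714 ± 46.5 and 602 ± 49.6 CPM (SD, n = 2 per group). The log2 fold change of ACTN1 was -0.25 (SE 0.12, adjusted p = 0.56, edgeR). VCL, which encodes vinculin, had 267 and 282 CPM against 266 and 274 CPM. Among 16 genes of cadherin shedding, processing and turnover none was called either (0 with an unadjusted p under 0.05, and 0 called by DESeq2), with log2 fold changes from -0.14 to 0.27. ADAM10, the main E-cadherin sheddase, had 199 ± 7.19 and 207 ± 11.0 CPM, and NUMB, an endocytic adaptor, 217 ± 6.57 and 202 ± 14.4 CPM (SD, n = 2 per group).

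Genes that degrade beta-catenin or act with it in the nucleus were likewise not called: 0 of 18 tested, and 0 by DESeq2. Of the 18, 1 had an unadjusted p under 0.05, beside 10.2% of all genes. That one was PYGO1, a nuclear cofactor gene of low level, with 3.62 and 3.66 CPM against 6.79 and 6.36 CPM (log2 fold change 0.85, SE 0.24, adjusted p = 0.20, edgeR). The most abundant genes of the list were BCL9L, another cofactor, at 313 ± 18.1 and 265 ± 27.4 CPM, and CSNK1A1, a kinase of the destruction complex, at 238 ± 0.34 and 222 ± 20.5 CPM (SD, n = 2 per group). Of 16 tested beta-catenin target genes, 1 was called, beside 0.549% of all genes. CD44, which encodes a hyaluronan receptor and has other inputs than beta-catenin, was lower with TINCR-HA-FLAG, at 58.9 ± 4.38 CPM, than with the empty vector, at 87.8 ± 1.85 CPM (SD, n = 2). The log2 fold change was -0.57 with an SE of 0.11 and an adjusted p of 0.049 in edgeR. This adjusted p lay just under the threshold, and the edgeR call did not hold when low counts were not filtered (adjusted p of 0.15). Leaving out each library in turn gave log2 fold changes of CD44 from -0.66 to -0.50.

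CCND1, the cyclin D1 gene, was the most abundant target, with 1174 and 1271 CPM against 1054 and 1107 CPM (log2 fold change -0.18, SE 0.13, adjusted p = 0.72, edgeR). AXIN2, a feedback inhibitor that stands on both beta-catenin lists, had 3 and 8 counts against 18 and 8 and did not pass the filter, and LGR5, a receptor gene, had at most 2 counts. APCDD1, a Wnt inhibitor gene, had 8.11 and 14.8 CPM with the empty vector and 23.0 and 24.1 CPM with TINCR-HA-FLAG, and was chosen for mention after its values were seen. The fitted difference was 1.04 on the log2 scale (SE 0.22, adjusted p = 0.088, edgeR), and DESeq2 called it (adjusted p = 0.0098). Without empty vector replicate 2, whose 14.8 CPM lay nearer to the TINCR-HA-FLAG values, the log2 fold change of APCDD1 was 1.54. The size of its difference thus depended on the empty vector library used. The median of the target list was -0.02, with 7 positive and 9 negative changes.

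No transcriptional regulator of cadherin genes was called among 21 tested, and 0 were called by DESeq2. An unadjusted p under 0.05 was seen for 5 of the 21, beside 10.2% of all genes. Of the repressors of CDH1, SNAI2 was the most abundant of the 4 named here and had 58.4 and 62.8 CPM against 57.4 and 65.9 CPM. SNAI1 had 1.49 to 2.10 CPM, and ZEB1 and ZEB2 had at most 17 counts in any library. The epithelial factors ELF3, at 249.6 ± 20.7 and 274 ± 25.9 CPM, and ESRP1, at 217 ± 5.66 and 246 ± 16.8 CPM (SD, n = 2 per group), were the most abundant. Of the ETS family factors that bind the CDH5 gene in endothelium, ETS1 had 51.2 and 48.1 CPM with the empty vector and 34.8 and 36.3 CPM with TINCR-HA-FLAG (log2 fold change -0.48, SE 0.11, adjusted p = 0.11, edgeR). ERG had 33 and 16 counts against 6 and 12 (log2 fold change -1.68, SE 0.59, adjusted p = 0.34, edgeR), and FLI1 had 30 and 29 against 25 and 45. Both TINCR-HA-FLAG libraries lay below both empty vector libraries for ETS1 and ERG, as for 17.9% of all genes tested. Neither gene passed the test, and the values of FLI1 overlapped.

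CDH5 is a marker of endothelial cells, so 21 other endothelial genes were examined beside it. Of these 21, 11 passed the filter and none was called by edgeR, and 0 by DESeq2. An unadjusted p under 0.05 was seen for 4 of the 11, beside 10.2% of all genes. Among the 11, 8 log2 fold changes were positive and 3 negative, with a median of 0.18. Both TINCR-HA-FLAG libraries lay above both empty vector libraries for 5 of them and below for 2. Over all genes tested these shares were 21.7% and 17.9%. Their summed level was 102 and 115 CPM with the empty vector and 119.8 and 143 CPM with TINCR-HA-FLAG, most of it from EGFL7 and ENG. Counts within the list ran from 0 to 1502 in a library, the highest being those of EGFL7 and ENG. KDR, the VEGF receptor gene, had 1 and 0 counts against 2 and 2, ROBO4 had 0 and 0 against 0 and 1, and EMCN had 1 and 0 against 0 and 1. The angiopoietin receptor gene TEK had 5 and 0 counts against 1 and 1, CD34 had 3 and 1 against 1 and 2, and PECAM1, a junctional adhesion gene, had 7 and 5 against 8 and 4. Which cells the endothelial transcripts came from was not tested. Of the 21 genes, 5 had at most 3 counts in each library.

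Among the endothelial genes with more reads, EGFL7 and VWF had higher values with TINCR-HA-FLAG and ENG overlapped. ERG, an ETS factor gene that is also on this list, had lower values with TINCR-HA-FLAG. Its log2 fold change of -1.68 was the lowest of the 11 endothelial genes tested. EGFL7, which encodes a secreted factor, had 39.1 and 48.5 CPM with the empty vector and 53.4 and 67.7 CPM with TINCR-HA-FLAG (log2 fold change 0.47, SE 0.15, adjusted p = 0.27, edgeR). Without TINCR-HA-FLAG replicate 1, the lower library of its group, the log2 fold change of EGFL7 was 0.63. Leaving out the lower library of the higher group raises a difference by construction, so this value shows only how far EGFL7 depended on that library. ENG, which encodes the co-receptor endoglin, had 41.7 and 45.9 CPM against 40.6 and 50.5 CPM. VWF, the von Willebrand factor gene, had 9.11 and 10.4 CPM against 13.2 and 12.3 CPM (log2 fold change 0.39, SE 0.17, adjusted p = 0.48, edgeR). FLT1, another VEGF receptor gene, had 4 and 7 counts against 32 and 16 (log2 fold change 1.86, SE 0.70, adjusted p = 0.39, edgeR). Without TINCR-HA-FLAG replicate 2, the lower library of its group, the log2 fold change of FLT1 was 2.40, a rise that again follows from the library left out.

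**Figure D4:**
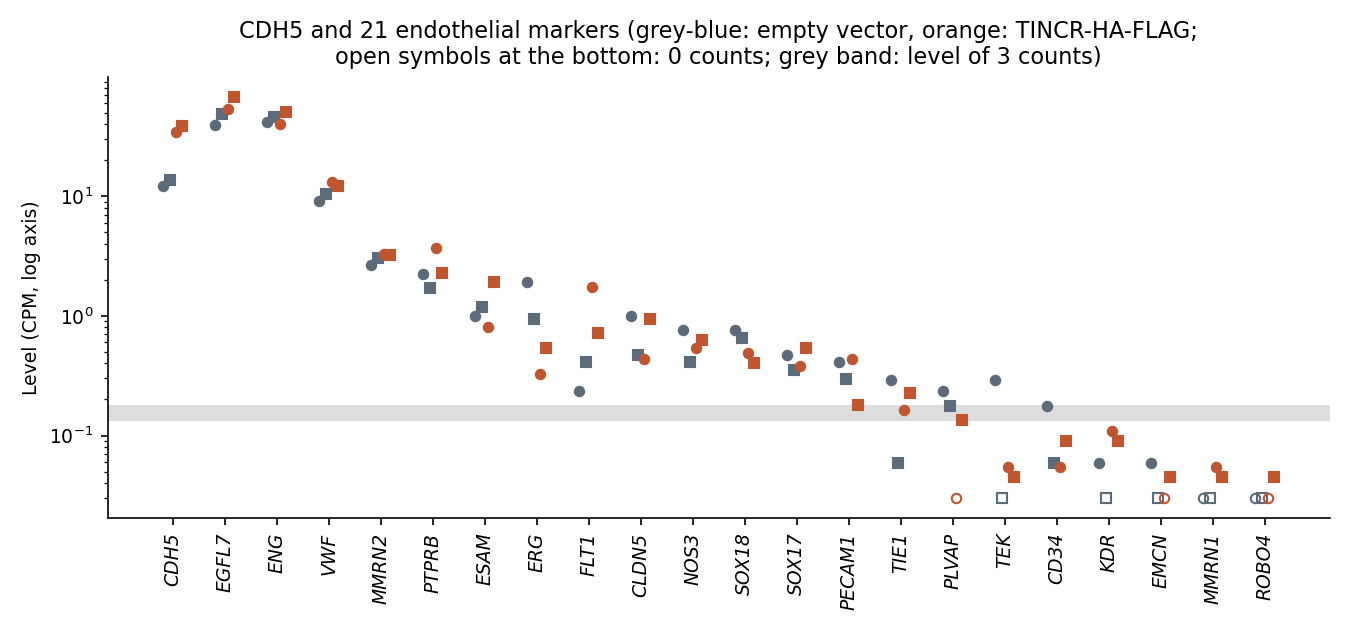
Level in CPM (vertical axis, log scale) of CDH5 and 21 endothelial markers (horizontal axis) in each library, with empty vector libraries in grey-blue, TINCR-HA-FLAG libraries in orange, circles for replicate 1 and squares for replicate 2. The grey band marks the level of 3 counts, 0.13 to 0.18 CPM, open symbols at the bottom stand for 0 counts, and KDR, EMCN, MMRN1 and ROBO4 lie below the band in every library.

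Of the 8 members, 4, CDH5, CDH3, CDH1 and CDH13, are on the long arm of chromosome 16. CDH5 starts 2.27 Mb before CDH3, and CDH13 starts 13.9 Mb after the start of CDH1. Within 1 Mb of the CDH5 start, 30 other genes were tested, all of them downstream, and none was called (0 called by DESeq2). Of these 30, 3 had an unadjusted p under 0.05, beside 10.2% of all genes. Their median log2 fold change was 0.02, with 16 positive and 14 negative. The nearest, LINC00920, BEAN1 and TK2, chosen for mention after their values were seen, had higher values with TINCR-HA-FLAG. The noncoding RNA gene LINC00920, which starts 41.9 kb downstream of the CDH5 start, had 30 and 26 counts against 64 and 93 (log2 fold change 1.23, SE 0.33, adjusted p = 0.18, edgeR). BEAN1, at 60.7 kb, had 0.76 and 1.06 CPM against 1.57 and 1.76 CPM (log2 fold change 0.87, SE 0.44, adjusted p = 0.56, edgeR). TK2, which encodes the mitochondrial thymidine kinase and starts 186 kb away, had 20.0 and 20.1 CPM against 27.7 and 27.8 CPM (log2 fold change 0.47, SE 0.12, adjusted p = 0.17, edgeR).

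Both TINCR-HA-FLAG libraries lay above both empty vector libraries for 4 of the 6 tested genes within 250 kb of the CDH5 start and for 4 of the 24 between 250 kb and 1 Mb, beside 21.7% of all genes tested. The 250 kb limit was set after the values were seen, and whether the 2 windows differ was not tested. The medians of the log2 fold changes were 0.38 within 250 kb and -0.03 beyond. CDH8 and CDH11 lie on the upstream side of CDH5, further than 1 Mb away, and had log2 fold changes of 0.47 (SE 0.28) and -0.88 (SE 0.51), with at most 28 counts of CDH11 in any library.

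**Figure D5:**
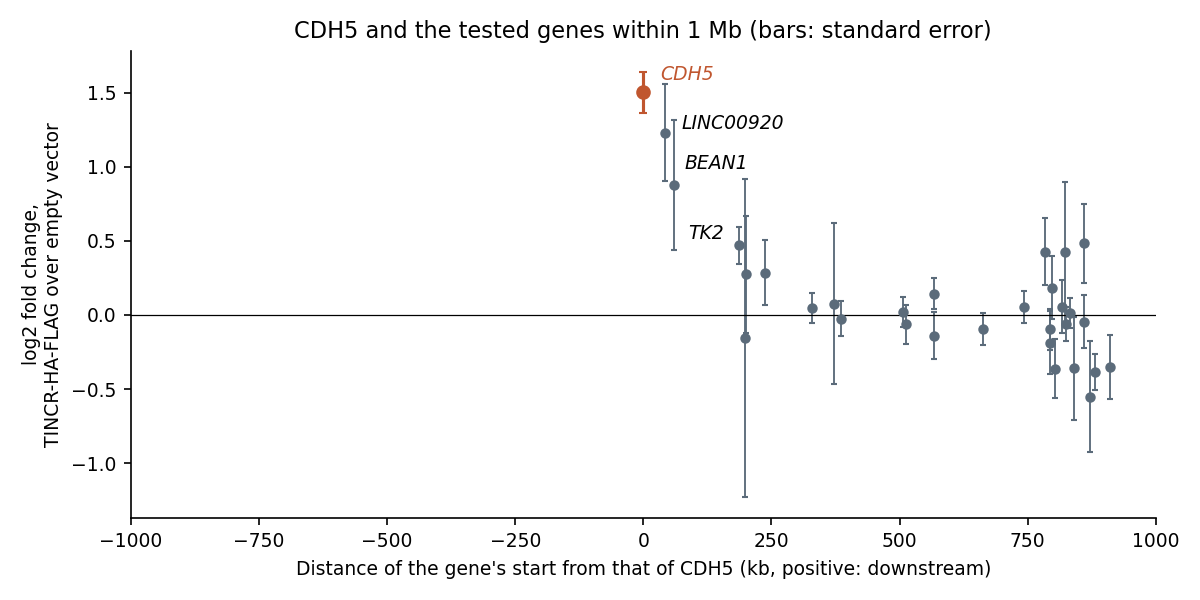
The log2 fold change of TINCR-HA-FLAG over empty vector with its standard error (vertical axis) for CDH5 in orange and the 30 other tested genes within 1 Mb in grey-blue, by distance of their start from that of CDH5 in kb (horizontal axis, downstream positive). LINC00920 at 1.23, BEAN1 at 0.87 and TK2 at 0.47 lie nearest to CDH5, and no tested gene lies on its upstream side.

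The genes whose profile over the 4 libraries was closest to that of CDH5 were named by a rule, the smallest Euclidean distance between log2 CPM values centred on each gene's own mean. Among 11730 genes compared, the closest was KRT13, a keratin gene of suprabasal non-cornifying epithelium, at a distance of 0.05. IFI27, an interferon-stimulated gene, followed at 0.10, CYP7B1, an oxysterol hydroxylase gene, at 0.20, MGAM, the maltase-glucoamylase gene, at 0.21, and the noncoding RNA gene LINC01234 at 0.25. KRT13 had 68.0 and 78.4 CPM with the empty vector and 188 and 216 CPM with TINCR-HA-FLAG, and IFI27 had 47.5 and 48.1 against 127 and 142 CPM. Their log2 fold changes, 1.47 and 1.49, were close to the 1.501 of CDH5 by the way they were chosen. The distance says only that the 4 values moved alike, and MGAM has a similar paralog with which reads could be shared.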

How the data were processed

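The authors deposited raw counts for each Ensembl gene, as whole numbers. The submitters' processing notes name GRCh38, STAR 2.7.9a, bcl2fastq 2.20.0.422 and also DESeq2 1.32.0, without a role for each. How reads were counted, on which strand and with which annotation is not given in the sources used here. Columns were matched to the 4 samples by cell line, construct and replicate number, and 12 other library columns were not used. Symbols came from a reference table (60507 rows matched), and positions and exon lengths from GENCODE 29 (58381 rows matched).

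Counts were scaled by TMM and filtered with filterByExpr (18771 genes kept). The quasi-likelihood test of edgeR 4.0.16 (robust, R 4.3.3) was applied, with Benjamini-Hochberg adjustment over all genes and calls at an adjusted p under 0.05. Standard errors are the log2 fold change over the root of its F statistic. At these depths 3 counts are 0.13 to 0.18 CPM, which covers counting error only. DESeq2 1.42.0 was the alternative. Both tools were tested on simulated counts, drawn independently for each library with a spread set by the gene's level. Spread particular to a gene and deviations shared by same-numbered libraries were not simulated, so the rates hold for that setting only. There edgeR called 31.1% of 1.5-fold, 55.3% of 2-fold and 89.5% of 4-fold changes, and DESeq2 called 25%, 48.9% and 82.6%. A gene that was not called is thus not shown to be unchanged. Members, gene lists and the rule for named genes were chosen with earlier results of these data known. The rule takes the members, the called genes of each list or else its 2 most expressed, called neighbours, and the 5 genes most like CDH5. Genes named outside it are CTNND2, PYGO1, VCL, AXIN2, LGR5, APCDD1, CDH11, HAS3, KRT5, KRT6A, SFN and CCND1. Also outside it are the SNAI, ZEB and ETS factors, the further endothelial genes and the 3 neighbours of CDH5. All of these were chosen after their values were seen.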

Additional observations from a re-analysis of the deposited data

How the results depend on the processing

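The log2 fold change of CDH5 stayed between 1.38 and 1.59 over the 12 alternatives. These refit the libraries that chose CDH5, so its call in each of them is no independent support. Against 85 higher and 18 lower calls over all genes, DESeq2 gave 131 and 59 and no filter on low counts 47 and 6. Leaving out each library in turn gave 69 to 226 higher and 45 to 160 lower calls; the cause was not tested. By DESeq2, 2 beta-catenin targets, 3 squamous genes and 1 neighbour of CDH1 or CDH3 were called. With no filter 0 beta-catenin targets were called, and with library totals 2 squamous genes. Leaving out each library in turn gave log2 fold changes of 0.048 to 0.39 for CDH1 and -0.25 to 0.17 for CTNND1. With the longest transcript as length, CDH5 made up 2.38% and 5.85% of the cadherin sum (empty vector and TINCR-HA-FLAG), CTNNB1 41.8% and 39.995% of the catenin sum and CTNND1 2.41% and 2.40%, while with TINCR-HA-FLAG CDH2 made up 1.58% and CTNNA1 57.6%. RLE factors, 1 CPM in 2 libraries, leaving TINCR out and the legacy dispersion changed none of these counts by over 1.5 times.

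The groups share replicate numbers, and deviations of same-numbered libraries from their group means correlated at 0.58 over 11920 genes. With 2 pairs and no label of a shared source, whether same-numbered libraries were handled together is not known. The main fit takes no account of such a pairing. With the replicate number as a block, 1317 genes were called higher and 1316 lower, of 18771 tested. The block called CDH1 beside CDH5 among the 8 members, with a log2 fold change of CDH1 of 0.24 (SE 0.05). It called 1 of 5 other cadherins, 4 of 19 junction partners, 1 of 16 processing genes and 3 of 18 destruction complex genes. It also called 3 of 16 beta-catenin targets, 6 of 21 regulators, 3 of 11 endothelial, 1 of 6 fibroblast and 7 of 12 squamous genes. Of the neighbours it called 4 of 30 for CDH5 and 10 of 51 for CDH1 or CDH3. With so many genes called over all, nothing is read from these list counts.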

Other observations

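Of 12 squamous epithelial markers, all tested, 1 was called by edgeR, beside 0.549% of all genes. KRT14, a basal keratin gene, was lower with TINCR-HA-FLAG, at 55.1 ± 12.9 CPM, than with the empty vector, at 116.8 ± 12.1 CPM (SD, n = 2). In edgeR the log2 fold change was -1.08 (SE 0.15) with an adjusted p of 0.014. DESeq2 called 3, KRT14, KRT6A and SFN, beside 190 of all 18771 genes tested. The median log2 fold change of the list was -0.23 with 11 of 12 negative, beside 9253 of all 18771. Both TINCR-HA-FLAG libraries lay below both empty vector libraries for 8 of the 12 and above for 0. Over all genes tested these shares were 17.9% and 21.7%. None of the 6 tested fibroblast markers was called by edgeR (0 by DESeq2). Among these 6, 1 had an unadjusted p under 0.05, beside 10.2% of all genes. The fibroblast list summed to 47.4 and 43.4 CPM with the empty vector and 52.3 and 52.3 CPM with TINCR-HA-FLAG. COL1A1, a collagen gene, was at 25.5 ± 2.05 and 33.6 ± 0.05 CPM (SD, n = 2), with an adjusted p of 0.26 in edgeR.

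Of 51 tested neighbours of CDH1 or CDH3, 5 had an unadjusted p under 0.05 in edgeR, beside 10.2% of all genes. After adjustment edgeR called 0 of these neighbours and DESeq2 called 1. That gene was HAS3, a hyaluronan synthase gene, with 22.9 and 19.1 CPM against 11.2 and 13.3 CPM (log2 fold change -0.77, SE 0.16, adjusted p = 0.082, edgeR), chosen for mention after its values were seen.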
